A study of Mus musculus with 8 samples.

Results

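The cholesterol and fatty acid synthesis genes were a list of 39 genes chosen by name, among 18193 genes that had a probe set assigned to a single gene. The choice was made with earlier results of these data known. The list held 17 enzymes of the sterol branch, 9 genes that sense or move sterols and 13 genes of fatty acid synthesis, desaturation, elongation and activation. Each gene was read from its brightest single-gene probe set over the 6 wild-type, Smad2-deficient and Smad3-deficient arrays. In all, 37 genes had such a probe set and 36 were bright enough to be tested, namely 16 sterol enzymes, 8 sensing and transport genes and 12 fatty acid genes. Acat2 and Nr1h2 were not analysed here, and Scd1, an isoform of stearoyl-CoA desaturase, was not tested because its signals of 3.1 to 49 stayed under the limit of 65.0.

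Expression was measured on Affymetrix arrays in naive splenic CD4 T cells of C57BL/6J mice, sorted as CD4+CD25-CD44loCD62Lhi at a purity over 98%, per the labels. All cultures held 1 ug/ml of plate-bound anti-CD3e and of soluble anti-CD28, 10 ug/ml of anti-IFN-g and of anti-IL-4, and 10 ng/ml of IL-2, for 24 h, and each genotype was cultured with or without 2 ng/ml of TGF-b. The 4 genotypes were wild type (WT), Smad2del/del made by a conditional knockout in T cells (Smad2KO), Smad3-/- (Smad3KO), and Smad2del/del with Smad3+/-, here called Smad2KO_Smad3het. The last genotype keeps 1 Smad3 allele and stood in for cells without both Smads, whose naive cells were scarce. The sources used here name neither the Cre driver nor the ages or number of animals. There were 8 arrays, 1 per genotype and treatment, and their number limits the precision of every value. A difference between 2 arrays thus has no replicate check, and p-values below measure only the spread between these cultures, which may be technical.

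Animal cells make cholesterol from acetyl-CoA through mevalonate, isoprenoid diphosphates, squalene and lanosterol, and make fatty acids from malonyl-CoA. Both routes are under SREBP transcription factors, which Scap carries out of the endoplasmic reticulum when sterols are low and which Insig proteins hold back when sterols are high. LXR receptors respond to oxysterols and induce the efflux pumps ABCA1 and ABCG1. Activated T cells are known to raise lipid synthesis as they prepare to divide, and TGF-b acts through Smad2 and Smad3, so the comparisons ask which of these genes moved with TGF-b and whether their levels differed without either Smad.

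Values are scaled signals on a linear scale, brought to one trimmed mean per array, and signals under 32.5 were set to that floor before log2 was taken. The Smad2KO_Smad3het arrays stood apart. Their rank correlations with the other 6 arrays were 0.659 to 0.693, against 0.907 to 0.928 among those 6, and their scaled medians were 103 and 107 against 30.7 to 35.7. They are given beside the others and were left out of the tests. All 7 CD4 T cell markers read were bright on every array. On the 6 arrays 0 of 4 B cell and 0 of 2 NK cell markers reached the limit of 65.0, and at most 1 of 5 myeloid and 2 of 2 CD8 markers did. The NK marker signals summed to 7.74 to 21.7 without and 32.6 to 75.0 with TGF-b, the CD8 sums to 83.5 to 161 and 68.2 to 132, the myeloid sums to 123 to 209.9 and 105 to 117 and the B cell sums to 61.7 to 69.4 and 47.2 to 78.0. Their part in the results was not tested. The ratio of 3' to 5' Gapdh control signals was -0.35 to -0.26 on the log2 scale on the 6 arrays, while the 3 control probe sets for 18S ribosomal RNA read 2615 to 4022 in WT without TGF-b and 70.7 to 184 in WT with it. They read 34.9 to 226 on the Smad2KO arrays and 716 to 2545 on the Smad3KO arrays. The part of the 18S difference between the WT arrays in the WT ratios below was not tested. Smad2's brightest probe set gave 1069 and 1031 (WT) and 1154 and 1045 (Smad2KO), and that of Smad3 gave 149 and 548 (WT) and 614 and 730.3 (Smad3KO). The sources used here do not place these probes inside or outside the deleted parts, so they check nothing.

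In the test of the mean TGF-b response, 8 of the 36 tested genes passed. Each of these calls was lost under some alternative settings, given below. Abca1 and Abcg1, the sterol efflux pumps, and Scd2, a desaturase, were higher with TGF-b, while Lss, the enzyme that closes squalene epoxide into lanosterol, was lower. Smaller changes were found for Hmgcs1 and Msmo1, which were lower, and for Ebp and Sc5d, which were higher. The mean response over WT, Smad2KO and Smad3KO was tested with limma across 9454 genes, with genotype as a block. Of the 36 members tested, 5 rose (13.9%) and 3 fell (8.33%). Of all genes tested, 7.16% rose and 5.68% fell, and the difference in shares was not tested. Members were chosen with earlier results of these data known, and Abca1 was bright enough to be tested only with TGF-b. These shares thus describe the list and are no evidence about the pathway. At an unadjusted p under 0.05, limma counted 14 of 36 (38.9%), beside 28.1% of all genes. The RNA came from whole cultures, so fewer cells of a type and less RNA per cell cannot be told apart.

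**Figure D1:**
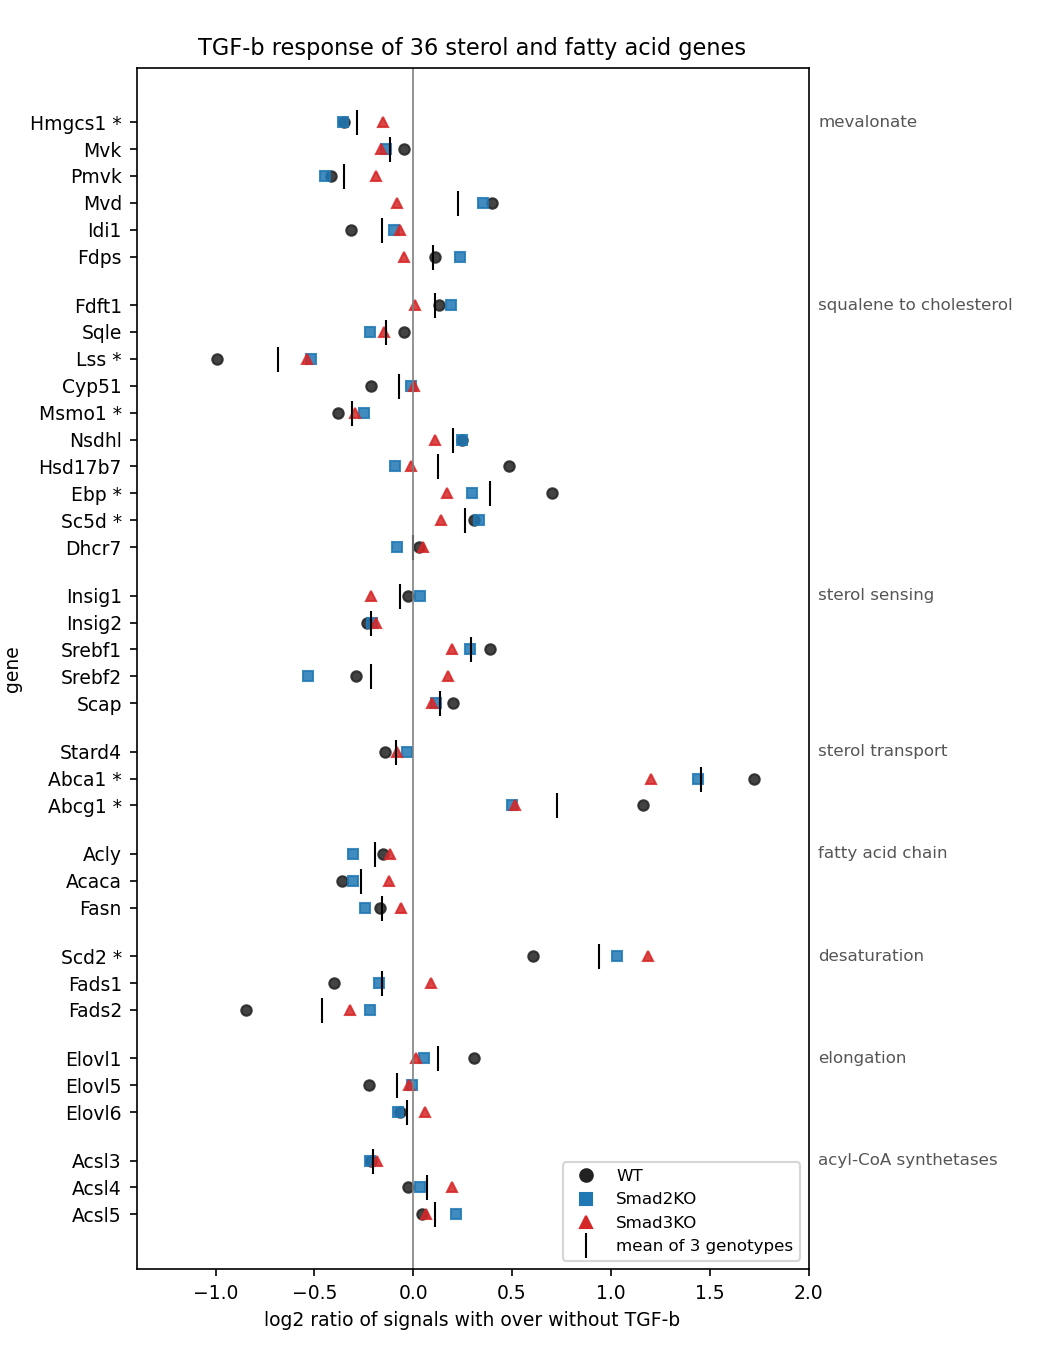
Log2 ratio of the signal with TGF-b over that without it (horizontal axis) for each of the 36 tested genes (vertical axis, grouped by role), with 1 point per genotype and a bar for the mean of the 3 genotypes. Asterisks mark the 8 genes that passed the test of the mean response; Abca1 and Scd2 lie farthest to the right and Lss farthest to the left among them, and most other points lie near 0.

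The mevalonate steps turn acetyl-CoA units into isoprenoid diphosphates. Signals are given without and then with TGF-b. Where all signals with TGF-b lay above or below all those without it, this is a description. The share of all genes that separate this way was not counted, so it adds no support to a call. Hmgcs1, the cytosolic HMG-CoA synthase at the head of the route, read 4498 and 3529 (WT), 4313 and 3375 (Smad2KO) and 4376 and 3933 (Smad3KO). All 3 signals with TGF-b lay under all 3 without it, and Hmgcs1 fell by 0.29 in log2 units (SE 0.0698, limma adjusted p = 0.0195). The 5 bright probe sets for Hmgcs1 had mean responses from -0.57 to -0.22, and the dimmest of them was higher with TGF-b in Smad3KO. Pmvk, the phosphomevalonate kinase, had log2 ratios of -0.42 (WT), -0.45 (Smad2KO) and -0.19 (Smad3KO), with a mean of -0.35 that did not pass (SE 0.108, limma adjusted p = 0.0526). Idi1, which isomerizes isopentenyl diphosphate, read 3695 and 2974 (WT), 3436 and 3210.4 (Smad2KO) and 3694 and 3527 (Smad3KO), and its mean of -0.16 did not pass (SE 0.0719, limma adjusted p = 0.173). A second bright Idi1 probe set stood at -0.52 (WT), -0.18 (Smad2KO) and 0.27 (Smad3KO). Mvk, the mevalonate kinase, stood at -0.05 (WT), -0.14 (Smad2KO) and -0.16 (Smad3KO), and a second bright Mvk probe set at -0.47, 0.41 and -0.30 in the same order. Mvd, which decarboxylates the diphosphate, stood at 0.40 (WT), 0.35 (Smad2KO) and -0.08 (Smad3KO), and Fdps, the farnesyl diphosphate synthase, at 0.11 (WT), 0.24 (Smad2KO) and -0.04 (Smad3KO). Neither mean passed. A second bright Mvd probe set stood at 0.67 (WT), 0.16 (Smad2KO) and 0.26 (Smad3KO), so it did not show the negative Smad3KO ratio.

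Between squalene and cholesterol, Lss and Msmo1 fell while Ebp and Sc5d rose. Lss, lanosterol synthase, read 635 and 319 (WT), 484 and 337 (Smad2KO) and 594 and 409 (Smad3KO). The groups did not overlap, and Lss fell by 0.68 in log2 units (SE 0.116, limma adjusted p = 0.00248), 1.61-fold. A second bright Lss probe set stood at -0.72 (WT), -0.68 (Smad2KO) and 0.25 (Smad3KO), so it did not show the Smad3KO fall. Msmo1, the methylsterol oxidase that starts removal of the C4 methyl groups, read 1273 and 977 (WT), 1135 and 954 (Smad2KO) and 1162 and 946 (Smad3KO). Its signals with TGF-b were lower in all 3 genotypes than any without, a fall of 0.31 (SE 0.0797, limma adjusted p = 0.0251). Msmo1 had no other bright probe set.

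Ebp, the isomerase that shifts the sterol double bond, went the other way, with 999.8 and 1624 (WT), 994 and 1219.5 (Smad2KO) and 1187 and 1337 (Smad3KO). All 3 signals with TGF-b lay above all 3 without it, and Ebp rose by 0.39 (SE 0.102, limma adjusted p = 0.0311). Ebp had no other single-gene probe set. Sc5d, the desaturase that acts after Ebp, read 1549 and 1918 (WT), 1164 and 1466 (Smad2KO) and 1154 and 1272 (Smad3KO). The groups overlapped, but each genotype was higher with TGF-b and Sc5d rose by 0.26 (SE 0.0777, limma adjusted p = 0.048). On a second bright Sc5d probe set the ratios were 0.31, 0.27 and 0.38 in the same order. Cyp51, the lanosterol demethylase between Lss and Msmo1, read 2115 and 1823 (WT), 1774 and 1758 (Smad2KO) and 1909.8 and 1916 (Smad3KO). Its mean was -0.07 (SE 0.0754, limma adjusted p = 0.559). Its log2 ratios were -0.21 (WT), -0.01 (Smad2KO) and 0.00 (Smad3KO). Sqle, which makes squalene epoxide, had log2 ratios of -0.05 (WT), -0.22 (Smad2KO) and -0.15 (Smad3KO). Nsdhl, a dehydrogenase of C4 demethylation, stood at 0.25 (WT), 0.25 (Smad2KO) and 0.11 (Smad3KO), Fdft1, the squalene synthase, at 0.13 (WT), 0.19 (Smad2KO) and 0.01 (Smad3KO), Hsd17b7, a ketosteroid reductase of the same branch, at 0.49 (WT), -0.09 (Smad2KO) and -0.01 (Smad3KO), and Dhcr7, which makes cholesterol from 7-dehydrocholesterol, at 0.03 (WT), -0.08 (Smad2KO) and 0.05 (Smad3KO). None of these 5 passed.

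**Figure D2:**
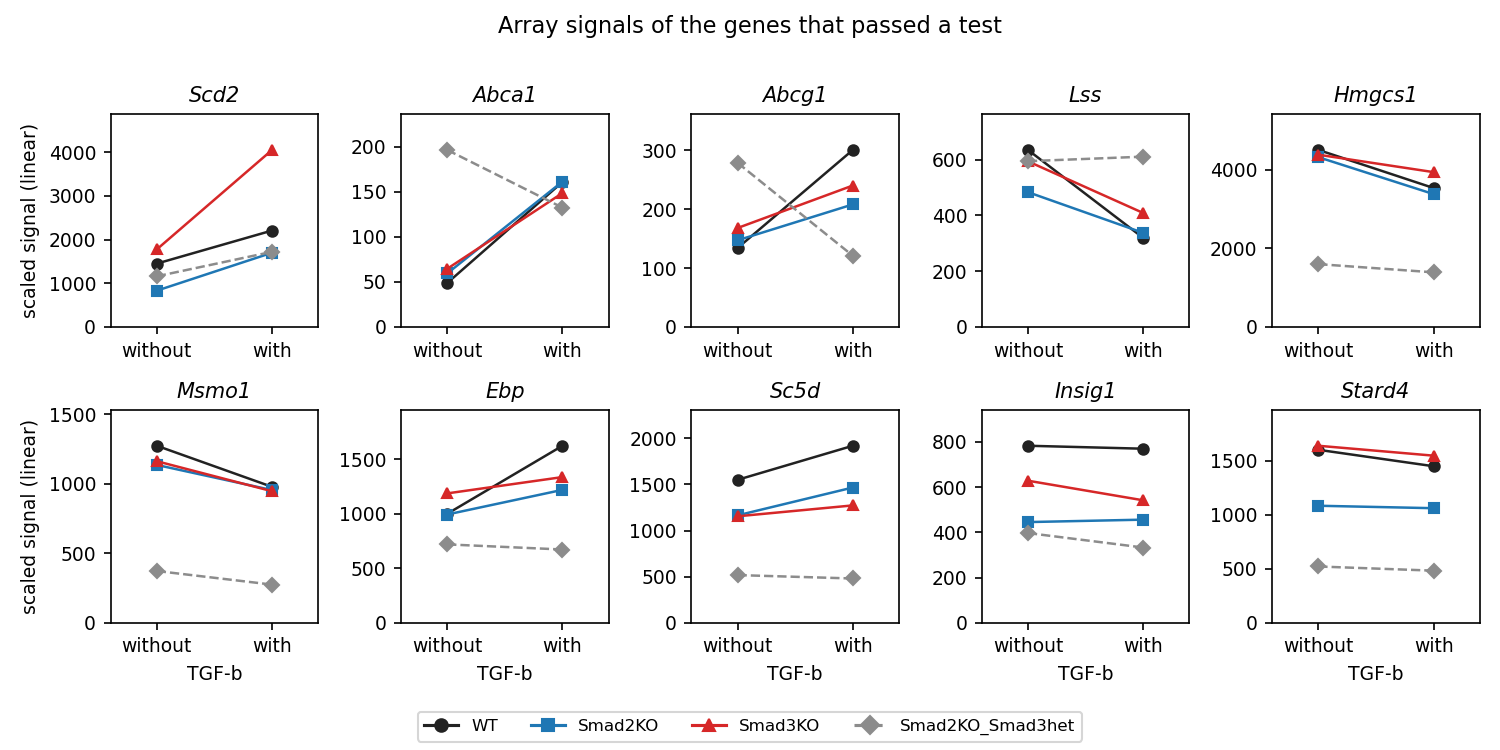
Scaled signal on a linear axis starting at 0 (vertical) without and with TGF-b (horizontal), 1 panel per gene and 1 line per genotype, for the 10 genes that passed a test of the response or of a genotype's level; each point is 1 array. The Smad2KO_Smad3het pair, dashed, was in no test and often lies apart, as in Hmgcs1 with 1597 and 1389.

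The promoters of the sterol enzymes that rose and those that fell can be set side by side. RefSeq windows of assembly GRCm38.p6 were at hand for 31 of the 39 genes, 40 windows in all, and the 250 bases before each start were searched on both strands. The motifs were the sterol regulatory element TCACNCCAC bound by SREBP, its core CACNCCA, which lies inside it, the CCAAT box of NF-Y, and the GC box GGGCGG of Sp1, factors known to act with SREBP. Below are the windows of the 5 sterol enzymes that passed, shown because enzymes of one pathway moved in opposite directions. Capitals mark TCACNCCAC, CCAAT and GGGCGG in either orientation, and each sequence runs 5' to 3' along the gene's strand.
Hmgcs1, chr13:119690101-119690350, plus strand: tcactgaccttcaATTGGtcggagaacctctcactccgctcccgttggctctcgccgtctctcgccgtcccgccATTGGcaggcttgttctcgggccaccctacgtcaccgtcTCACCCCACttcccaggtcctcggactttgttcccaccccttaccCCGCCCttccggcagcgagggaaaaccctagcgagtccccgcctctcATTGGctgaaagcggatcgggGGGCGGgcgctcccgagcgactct
Lss, chr10:76531355-76531604, plus strand: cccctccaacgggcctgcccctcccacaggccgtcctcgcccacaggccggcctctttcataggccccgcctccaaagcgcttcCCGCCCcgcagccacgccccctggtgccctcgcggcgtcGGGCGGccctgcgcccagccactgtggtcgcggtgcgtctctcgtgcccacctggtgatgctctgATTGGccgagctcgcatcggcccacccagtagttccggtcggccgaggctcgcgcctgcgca
Msmo1, chr8:64733579-64733828, minus strand: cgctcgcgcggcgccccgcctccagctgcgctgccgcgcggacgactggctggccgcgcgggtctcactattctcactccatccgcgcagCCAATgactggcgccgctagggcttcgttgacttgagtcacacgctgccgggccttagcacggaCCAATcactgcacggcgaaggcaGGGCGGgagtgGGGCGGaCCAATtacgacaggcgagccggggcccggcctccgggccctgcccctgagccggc
Ebp, chrX:8193513-8193762, minus strand: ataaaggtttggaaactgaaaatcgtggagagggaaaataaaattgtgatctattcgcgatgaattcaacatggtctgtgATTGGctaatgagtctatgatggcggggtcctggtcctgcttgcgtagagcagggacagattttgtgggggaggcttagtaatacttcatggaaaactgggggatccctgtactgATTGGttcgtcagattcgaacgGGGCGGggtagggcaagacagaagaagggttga
Sc5d, chr9:42264301-42264550, minus strand: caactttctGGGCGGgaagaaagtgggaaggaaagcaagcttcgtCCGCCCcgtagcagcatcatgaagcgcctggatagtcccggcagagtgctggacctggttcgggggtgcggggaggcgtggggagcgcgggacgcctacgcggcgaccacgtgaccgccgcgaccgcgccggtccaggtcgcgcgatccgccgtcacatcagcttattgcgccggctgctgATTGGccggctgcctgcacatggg
TCACNCCAC occurred in the Hmgcs1 window, from 137 to 129 bases before the start, and in no other window of the list, beside 1.05% of all 32851 windows. CCAAT occurred in 3, 1 and 3 places for Hmgcs1, Lss and Msmo1, which fell, and in 2 and 1 for Ebp and Sc5d, which rose. GGGCGG occurred in 2 places each for Hmgcs1, Lss, Msmo1 and Sc5d and in 1 for Ebp. Over the list, 13 of 14 sterol branch genes with a window had CCAAT and 13 of 14 had GGGCGG in at least 1 window, beside 33.8% and 32.7% of all windows. The core CACNCCA was in 3 of those 14 genes and in 15.6% of all windows. A share of genes with any window is not the same measure as a share of windows. Of the 40 windows of listed genes, 57.5% had CCAAT, 70% had GGGCGG and 22.5% had the core. These shares are descriptions, since windows of all genes differ in base composition and some genes have several windows.

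No sterol-sensing gene passed the test of the response. Srebf1, which encodes SREBP1, stood at 0.39 (WT), 0.29 (Smad2KO) and 0.19 (Smad3KO), with a mean of 0.29 just short of the threshold (SE 0.0888, limma adjusted p = 0.0519). Srebf2, which encodes SREBP2, the main regulator of sterol genes, read 1154 and 943 (WT), 1024 and 707 (Smad2KO) and 979.8 and 1108 (Smad3KO), lower with TGF-b in WT and Smad2KO and higher in Smad3KO. Its mean was -0.22 (SE 0.125, limma adjusted p = 0.297), and a second probe set stood at -0.47, 0.16 and 0.25 in WT, Smad2KO and Smad3KO. Without the Smad3KO pair the Srebf2 mean was -0.41 (limma adjusted p = 0.00564), past the threshold. That pair was the only one with a ratio above 0 on the probe set used, so this fit is no support for a fall. On the second probe set, WT and Smad2KO themselves differed in sign. Scap, the escort of SREBPs, read 1206 and 1386 (WT), 1185 and 1282 (Smad2KO) and 1157 and 1235 (Smad3KO) and its mean of 0.14 did not pass (SE 0.0768, limma adjusted p = 0.274). Insig2, a retention protein, stood at -0.23 (WT), -0.21 (Smad2KO) and -0.19 (Smad3KO), and Insig1, another, at -0.02 (WT), 0.03 (Smad2KO) and -0.21 (Smad3KO). The other 2 bright Insig2 probe sets had mean responses of 0.11 and 0.10 and Smad2KO minus WT of 0.12 and 0.06, all opposite to the probe set used.

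Both efflux pumps rose. Abca1, which exports cholesterol to apolipoprotein A-I, read 48.7 and 161 (WT), 59.3 and 161 (Smad2KO) and 64.5 and 149 (Smad3KO). The 3 signals with TGF-b lay all above those without, which were under the limit of 65.0, so Abca1 entered the test only through the arrays with TGF-b. Fads2 entered only through an array without it, and no other tested member passed through 1 treatment alone. The count of members called includes Abca1 and is no support for it. Abca1 rose by 1.46 in log2 units (SE 0.203, limma adjusted p = 0.000664), 2.74-fold. The other 2 Abca1 probe sets stayed under 65.0 on the 6 arrays, so the call rests on 1 probe set. Abcg1, which exports cholesterol to HDL, read 134 and 301 (WT), 147 and 208 (Smad2KO) and 168 and 240.2 (Smad3KO). The groups did not overlap, and Abcg1 rose by 0.73 (SE 0.164, limma adjusted p = 0.0131). Its log2 ratio was 1.16 in WT and 0.50 and 0.52 in Smad2KO and Smad3KO. The other Abcg1 probe set stayed under the floor on the 6 arrays, so this call also rests on 1 probe set. In WT, Abca1 and Abcg1 were the 2 of 36 bright members at 2-fold or more, beside 4.51% of bright genes that were 2-fold higher. In Smad2KO and in Smad3KO they were Abca1 and Scd2, 2 of 35, beside 2.94% and 1.89%. No member was 2-fold lower in these 3 genotypes, beside 2.89%, 1.76% and 0.839% of bright genes. Stard4, a carrier of sterols in the cytosol, read 1599.5 and 1447 (WT), 1082 and 1059.6 (Smad2KO) and 1637 and 1545 (Smad3KO). Its response was -0.09 (SE 0.0751, limma adjusted p = 0.489).

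LXR binds direct repeats known as DR4 sites, searched as GGTNA, any 5 bases and then GGTCA on either strand. The Abca1 window is shown because Abca1 had the largest response of the list and holds this pattern. Capitals mark it and GGGCGG.
Abca1, chr4:53159896-53160145, minus strand: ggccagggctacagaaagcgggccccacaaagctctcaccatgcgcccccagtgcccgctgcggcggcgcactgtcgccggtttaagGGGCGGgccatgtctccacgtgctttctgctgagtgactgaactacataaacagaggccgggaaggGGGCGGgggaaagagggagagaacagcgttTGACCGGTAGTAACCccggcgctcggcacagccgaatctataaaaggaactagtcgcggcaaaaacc
The match reads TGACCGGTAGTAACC along the gene's strand, the pattern's reverse complement, from 67 to 53 bases before the start. The pattern occurred in 0.177% of all windows and in 10% of the 40 windows of listed genes. It lay in at least 1 window of 4 of the 31 listed genes, Abca1, Acsl3, Fasn and Srebf1. Of these 4, Abca1 alone passed the test of the response. A match in letters is not evidence of binding in these cells, and no window was at hand for Abcg1 or Scd2.

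In the fatty acid branch one gene passed. Scd2, a stearoyl-CoA desaturase that makes monounsaturated fatty acids, read 1449 and 2205 (WT), 831 and 1698 (Smad2KO) and 1774 and 4048 (Smad3KO). Each genotype was higher with TGF-b, with ratios of 0.61 (WT), 1.03 (Smad2KO) and 1.19 (Smad3KO), and Scd2 rose by 0.94 (SE 0.105, limma adjusted p = 0.000395), 1.92-fold. The groups overlapped, with the Smad2KO signal under TGF-b below the Smad3KO signal without it. The other 2 Scd2 probe sets gave 0.98, 1.15 and 1.09 and 0.79, 1.66 and 0.99 in the same order, so all 3 rose in all 3 genotypes. Fads1, the delta-5 desaturase, read 501 and 380.3 (WT), 403 and 357 (Smad2KO) and 385 and 411 (Smad3KO), with a mean of -0.16 that did not pass (SE 0.116, limma adjusted p = 0.404). A second, dimmer Fads1 probe set had the opposite sign, at 1.33 (WT), 0.71 (Smad2KO) and 0.23 (Smad3KO). Fads2, the delta-6 desaturase, had low signals, 81.9 and 45.5 (WT), 37.8 and 29.8 (Smad2KO) and 54.4 and 43.6 (Smad3KO), and its mean of -0.46 did not pass (SE 0.302, limma adjusted p = 0.35).

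**Figure D3:**
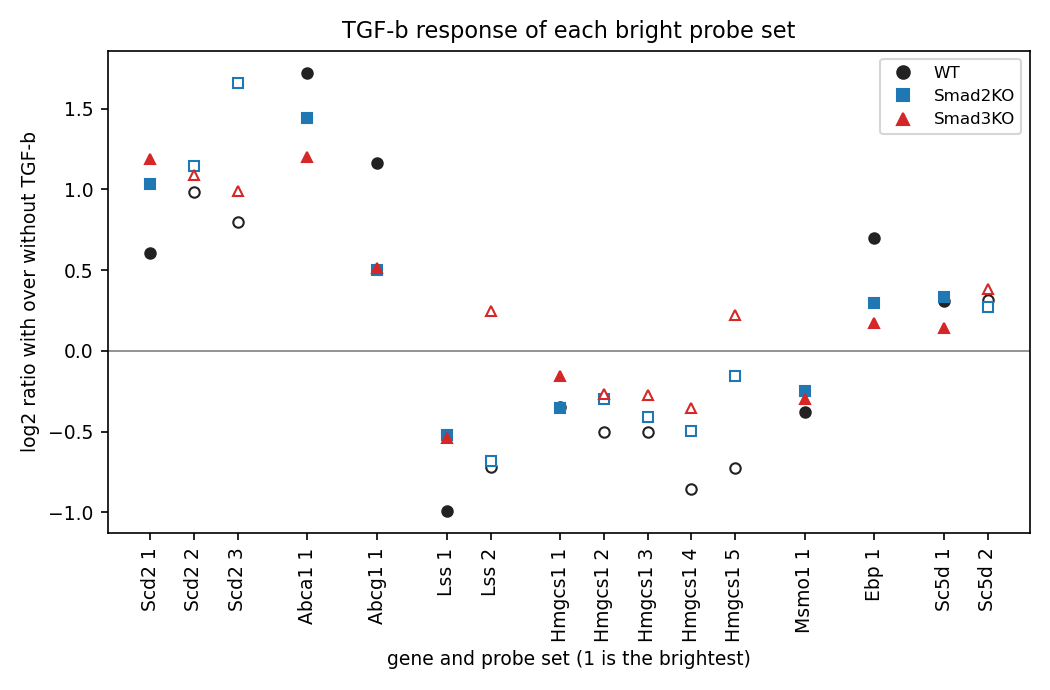
Log2 ratio with over without TGF-b (vertical axis) for each bright probe set (horizontal axis) of the 8 genes whose mean response passed, 1 point per genotype; filled points are the probe set used and open points the others. The 3 Scd2 probe sets lie between 0.61 and 1.66, while the second Lss and the fifth Hmgcs1 probe set lie above 0 in Smad3KO.

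On the probe sets used, the enzymes that build the chain read lower with TGF-b in WT, Smad2KO and Smad3KO. Acly, which makes cytosolic acetyl-CoA from citrate, read 3843 and 3460.4 (WT), 3838 and 3104 (Smad2KO) and 3661 and 3375 (Smad3KO). Its mean was -0.19 (SE 0.0686, limma adjusted p = 0.0913). Acaca, which makes malonyl-CoA, stood at -0.36 (WT), -0.30 (Smad2KO) and -0.12 (Smad3KO), with a mean of -0.26 (SE 0.0914, limma adjusted p = 0.0837). A second bright Acaca probe set stood at 0.45 (WT), 0.08 (Smad2KO) and -0.18 (Smad3KO). Fasn, the fatty acid synthase, read 2745 and 2444 (WT), 2915 and 2461 (Smad2KO) and 2848 and 2726 (Smad3KO), with a mean of -0.16 (SE 0.0692, limma adjusted p = 0.159). None of these 3 means passed. Elovl1, an elongase of very long chains, read 1642 and 2031 (WT), 1840.1 and 1914 (Smad2KO) and 1792 and 1807 (Smad3KO), and Elovl5, an elongase of polyunsaturated chains, 1989 and 1704 (WT), 1878 and 1872 (Smad2KO) and 1829 and 1800.4 (Smad3KO). Their means of 0.13 (SE 0.0795, limma adjusted p = 0.332) and -0.08 (SE 0.0756, limma adjusted p = 0.508) did not pass, and their WT ratios of 0.31 and -0.22 were the largest in size. Elovl6, an elongase of palmitate, stood at -0.07 (WT), -0.08 (Smad2KO) and 0.06 (Smad3KO). Of the acyl-CoA synthetases, which activate fatty acids, Acsl5 read 3187 and 3284 (WT), 3113 and 3622 (Smad2KO) and 3312 and 3460.4 (Smad3KO) and Acsl4 1834 and 1800.4 (WT), 2001 and 2048 (Smad2KO) and 1449 and 1659 (Smad3KO). Acsl3, another member of this family, stood at -0.21 (WT), -0.22 (Smad2KO) and -0.18 (Smad3KO). The other 2 bright Acsl4 probe sets had mean responses of 0.32 and 0.37, above 0 in each genotype, against 0.07 on the one used. No synthetase passed on the probe set used.

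Set side by side, the branches had medians close to 0. The median of the mean log2 response was -0.04 over the 16 sterol enzymes (range -0.68 to 0.39), -0.12 over the 12 fatty acid genes (-0.46 to 0.94) and 0.03 over the 8 sensing and transport genes (-0.22 to 1.46), beside -0.02 over all 9454 genes tested. By genotype, the sterol median was -0.01 (WT), -0.09 (Smad2KO) and -0.06 (Smad3KO), and the fatty acid median -0.16, -0.13 and -0.01. The ratio was below 0 in all 3 genotypes for 15 of 36 members (41.7%), beside 26.5% of all genes, and above 0 in all 3 for 11 (30.6%), beside 22.9%. The 15 were 7 of the 16 sterol enzymes, 6 of the 12 fatty acid genes and the 2 genes Insig2 and Stard4. The 11 were Ebp, Fdft1, Nsdhl and Sc5d of the sterol enzymes, Abca1, Abcg1, Scap and Srebf1, and the fatty acid genes Acsl5, Elovl1 and Scd2. These counts rest on 1 probe set per gene. Of 22 members with several bright probe sets, 7 had mean responses of mixed sign among them, namely Acaca, Cyp51, Elovl6, Fads1, Hsd17b7, Insig2 and Stard4. Signs within single genotypes differed for more members. Another bright probe set of Hmgcs1, Idi1, Lss, Mvk, Acly and Elovl5 was above 0 in at least 1 genotype. For Fdft1, Elovl1 and Scap another was below 0 in at least 1.

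Among 34 further lipid genes listed, 29 had a single-gene probe set and 22 were tested, of which 2 rose (9.09%) and 1 fell (4.55%), shares near the 7.16% and 5.68% of all genes tested. Cpt1a, which carries fatty acids into mitochondria for oxidation, read 216 and 355 (WT), 157 and 267 (Smad2KO) and 161 and 268 (Smad3KO). It rose by 0.74 in log2 units (SE 0.127, limma adjusted p = 0.00261). All 3 signals with TGF-b lay above all 3 without it. Npc1, which moves cholesterol out of lysosomes, read 70.2 and 131 (WT), 101 and 179.9 (Smad2KO) and 86 and 105 (Smad3KO) and rose by 0.67 (SE 0.197, limma adjusted p = 0.0439). Lbr, a sterol reductase that is also the lamin B receptor, read 4103 and 2888 (WT), 3949 and 3377 (Smad2KO) and 3980.2 and 3723 (Smad3KO). Its fall of 0.28 passed narrowly (SE 0.0819, limma adjusted p = 0.048). For Cpt1a, Npc1 and Lbr, other probe sets and alternative settings were not examined.

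The response calls depended on which arrays entered. With the Smad2KO_Smad3het pair added, 0 members were called higher and 0 lower, and of all genes 27 and 12 were called in place of 677 and 537. Without the WT pair 2 members, Abca1 and Scd2, were higher and 1, Lss, was lower. Without the Smad2KO pair 4 were higher and 1 lower, and without the Smad3KO pair 6 were higher and 6 lower. Of 13 alternative settings, Abca1 and Scd2 each kept their call in 11, Lss in 9, Abcg1 in 8, Ebp in 7, Hmgcs1 and Msmo1 in 6 and Sc5d in 3. Abca1 lost it with the Smad2KO_Smad3het pair added and when its probe sets were averaged, and Scd2 with that pair added and without the genotype block.

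Levels were next compared between genotypes, with treatment as a block, and Insig1 and Stard4 stood out. The cultures of a genotype with and without TGF-b served as its replicates. The sources used here do not say whether they came from separate animals, so these p-values cannot measure the spread between animals. Insig1, which holds SREBPs in the endoplasmic reticulum, read 783 and 769.6 (WT), 445 and 456 (Smad2KO) and 628 and 542 (Smad3KO). Both Smad2KO signals lay under both WT signals, and the Smad3KO signals lay between. Smad2KO was lower than WT by 0.78 in log2 units (SE 0.116, limma adjusted p = 0.00598). Smad3KO was at -0.41 against WT, which did not pass (SE 0.116, limma adjusted p = 0.168). Insig1 had no other single-gene probe set. Stard4, given above, was lower in Smad2KO than in WT by 0.51 (SE 0.092, limma adjusted p = 0.0219) and higher in Smad3KO than in Smad2KO by 0.57 (SE 0.092, limma adjusted p = 0.00828). Its other 2 probe sets put Smad2KO minus WT at -0.18 and -0.30, and Smad3KO minus Smad2KO at 0.35 and -0.00.

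The Insig1 window of 250 bases is shown because Insig1 had the largest level difference that passed against WT. Capitals mark CCAAT and GGGCGG, and TCACNCCAC did not occur in it.
Insig1, chr5:28071162-28071411, plus strand: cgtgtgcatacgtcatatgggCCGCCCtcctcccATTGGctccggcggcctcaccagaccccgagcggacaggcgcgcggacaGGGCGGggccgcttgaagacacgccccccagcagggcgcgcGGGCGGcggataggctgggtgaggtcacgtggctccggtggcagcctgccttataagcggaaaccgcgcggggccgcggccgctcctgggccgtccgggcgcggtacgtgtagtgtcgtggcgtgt
It held 1 CCAAT, 3 GGGCGG and 1 core CACNCCA.

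Scd2 separated the 2 single knockouts. Smad3KO was higher than Smad2KO by 1.17 on the log2 scale, 2.26-fold (SE 0.129, limma adjusted p = 0.00147), and both Smad3KO arrays lay above both Smad2KO arrays. The other 2 Scd2 probe sets put this difference at 1.16 and 1.10. Against WT, Smad2KO was at -0.59 (SE 0.129, limma adjusted p = 0.0839) and Smad3KO at 0.58 (SE 0.129, limma adjusted p = 0.102), and neither passed. Sc5d was lower in Smad3KO than in WT by 0.51 (SE 0.0952, limma adjusted p = 0.0473) and stood at -0.40 in Smad2KO (SE 0.0952, limma adjusted p = 0.0912). A second bright Sc5d probe set put Smad3KO minus WT at 0.14 and Smad2KO minus WT at 0.39, opposite to the first. Acsl4, a synthetase that prefers arachidonic acid, was at -0.39 in Smad3KO minus Smad2KO (SE 0.0923, limma adjusted p = 0.0508), while its other 2 bright probe sets stood at -0.01 and 0.06. Srebf1 was at 0.40 in the same comparison (SE 0.109, limma adjusted p = 0.0828), and Elovl6 at 0.48 in Smad3KO minus WT (SE 0.158, limma adjusted p = 0.257). The other 2 bright Elovl6 probe sets had the opposite sign in that comparison, -0.28 and -0.35.

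**Figure D4:**
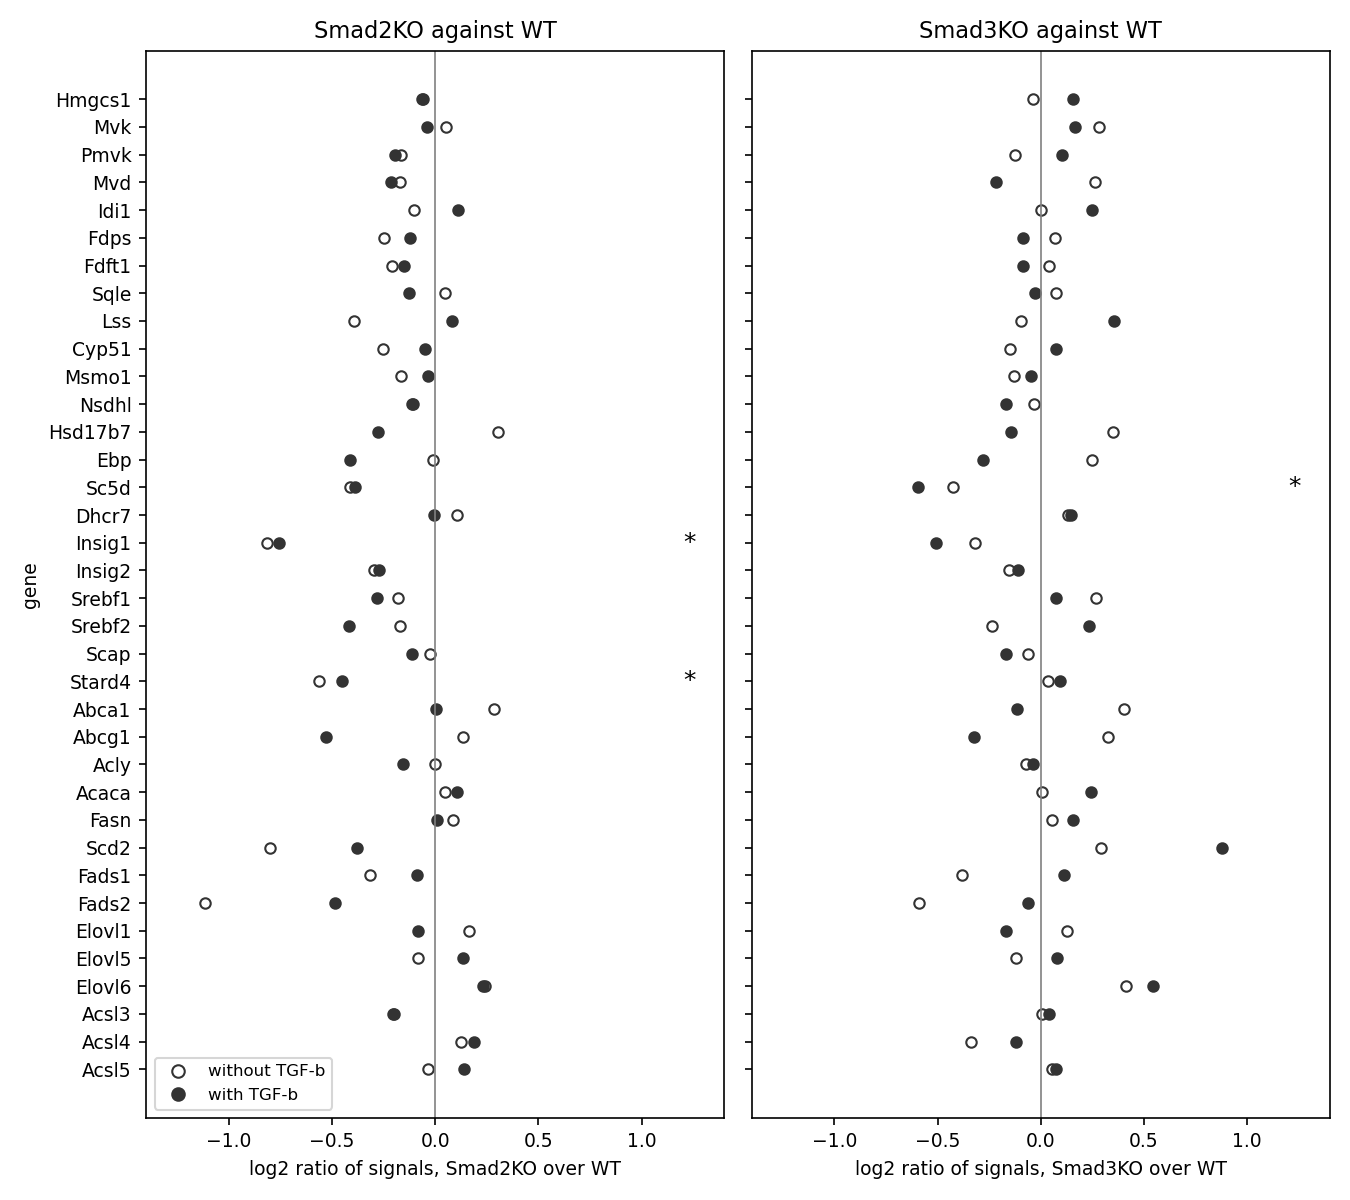
Log2 ratio of signals over WT (horizontal axis) for Smad2KO (left) and Smad3KO (right) in the 36 tested genes (vertical axis), with open points for the arrays without and filled points for those with TGF-b; both panels share the WT arrays. Asterisks mark the genes that passed, Insig1 and Stard4 on the left and Sc5d on the right, and Scd2 lies below 0 on the left and above 0 on the right.

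In either direction, 1.02% of all genes were called in Smad2KO against WT and 2.7% in Smad3KO against Smad2KO. By count, 0 members were called higher and 2 lower in Smad2KO than in WT, beside 0.518% and 0.497% of all 9454 genes. In Smad3KO against WT 0 were higher and 1 lower, beside 0.222% and 0.243%, and in Smad3KO against Smad2KO 2 were higher and 0 lower, beside 1.57% and 1.13%. Counts at an unadjusted p under 0.05 in either direction were 4, 5 and 5 of 36, beside 9.38%, 11% and 16.1% of all genes by limma. These comparisons share arrays. The median of Smad2KO minus WT was -0.13 over sterol enzymes and -0.26 over sensing and transport genes, and that of fatty acid genes was 0.03, beside -0.01 over all genes. Of the 36 members, 8 had both Smad2KO arrays below both WT arrays, beside 14.5% of all genes, namely Cyp51, Fads2, Fdft1, Fdps, Insig1, Insig2, Sc5d and Stard4, and 2, Acsl4 and Elovl6, had both above, beside 11.6%. Between the knockouts, 14 members had both Smad3KO arrays above both Smad2KO arrays, beside 22.5%, and 3, Acsl4, Elovl1 and Elovl5, had both below, beside 18.3%. Of the 22 members with several bright probe sets, the sign differed among them for 13 in Smad2KO minus WT, 12 in Smad3KO minus WT and 16 in Smad3KO minus Smad2KO. The 18S control signals, given above, also differed between the genotypes, and their part in these levels was not tested.

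The levels against WT depended on the scaling and on the WT arrays. With arrays centred on their median log2 signal, the median gene moved to 0.14 in Smad2KO minus WT and 0.18 in Smad3KO minus WT. The calls over all genes were then 176 higher and 39 lower, and 354 higher and 23 lower, in place of 49 and 47, and 21 and 23. Quantile normalization left the Smad3KO calls against WT at 13 higher and 19 lower. Under median centring Insig1 in Smad2KO minus WT was -0.63 (limma adjusted p = 0.0157) and still passed. Stard4 at -0.36 (limma adjusted p = 0.0837), and Sc5d in Smad3KO minus WT at -0.33 (limma adjusted p = 0.077), did not. Without the WT array lacking TGF-b, Insig1 was -0.82 (limma adjusted p = 0.0922), and without the WT array with TGF-b it was -0.75 (limma adjusted p = 0.213). Stard4 in Smad2KO minus WT lost its call without any 1 of the 4 WT and Smad2KO arrays, with limma adjusted p from 0.0993 to 0.21. Sc5d lost its call without either WT array or the Smad3KO array with TGF-b. Without either Smad3KO array, 4 members were lower in Smad2KO than in WT. Scd2 and Stard4 kept their calls in Smad3KO minus Smad2KO with any 1 of the 6 arrays left out, at 0.99 to 1.36 and 0.53 to 0.61. Averaging all probe sets of a gene, dropping the filter, the treatment block or limma's trend and robust settings, or adding the Smad2KO_Smad3het arrays each left 0 members called in the 3 level comparisons. For Scd2 in Smad3KO minus Smad2KO these gave limma adjusted p from 0.0696 to 0.755.

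Whether the response itself differed between genotypes was tested with 1 residual degree of freedom. No member passed in any of the 3 comparisons, beside 0.0424% of genes called in WT against the mean of the mutants, 0.0106% in Smad2KO against the mean of the others and 0.36% in Smad3KO against the mean of the others. At an unadjusted p under 0.05, limma counted 4, 1 and 1 of the 36 members, beside 7.44%, 2.31% and 8.31% of all genes. Of the calls over all genes, those lower made up 0.0318%, 0.0106% and 0.233% of genes in the 3 comparisons. The WT response of Scd2 was below the mean of the mutants, with a difference of -0.51 (95% interval -0.83 to -0.18, limma adjusted p = 0.564). Those of Ebp and Abcg1 were larger by 0.47 (95% interval 0.11 to 0.82, limma adjusted p = 0.584) and 0.66 (95% interval 0.01 to 1.30, limma adjusted p = 0.666), and the Lss difference was -0.46, a larger fall in WT (95% interval -0.92 to -0.01, limma adjusted p = 0.666). For Srebf2, the Smad3KO response exceeded the mean of WT and Smad2KO by 0.59 (95% interval 0.22 to 0.96, limma adjusted p = 0.267). None of these differences passed, and the intervals do not show that the responses were alike. For Abca1, the WT response minus the mean of the mutants was 0.40 (95% interval -0.53 to 1.33).

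The Smad2KO_Smad3het pair is given for comparison, with no test. Scd2 read 1159 and 1719 there without and with TGF-b, higher with TGF-b as in the other genotypes. Abca1 read 196 and 132 and Abcg1 279 and 121, lower with TGF-b on the probe sets used. A second probe set of each read higher with TGF-b on these arrays, 82.1 and 178 for Abca1 and 38.7 and 69.6 for Abcg1. The remaining Abca1 probe set read 99.7 and 76.9, lower with TGF-b like the one used. Hmgcs1 read 1597 and 1389 and Msmo1 373 and 275, lower with TGF-b, while Lss read 595 and 611, Ebp 719 and 672 and Sc5d 517 and 480.3. Insig1 read 397 and 333 and Stard4 521 and 482, under every signal of these genes on the other 6 arrays. This was not particular to them. Many other members, Hmgcs1, Idi1, Sqle, Acly and Fasn among them, also lay under all 6, while some, such as Mvd and Acaca, lay above. On these 2 arrays 12.4% of bright genes were 2-fold higher and 10.9% 2-fold lower with TGF-b, against 1 and 3 of 37 members. Its scaled medians stood far above the others, so no level was tested against them.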

How the data were processed

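The authors deposited 1 linear signal intensity per probe set and array, and GCOS 1.4 is named in the submitters' processing notes; the sources used here do not say how signals were scaled. Each array was multiplied to one 2% trimmed mean (252.9), with 64 control probe sets left out. The floor was the median signal of the 6 arrays, and a gene was tested where its highest signal reached 2 times the floor. GEO's platform annotation gave 34945 of 45101 probe sets 1 gene symbol, 932 several and 9160 none, and 34741 were matched to the RefSeq gene table. Fits used limma 3.58.1 in R 4.3.3 with eBayes trend and robust settings, with 2 residual degrees of freedom (1 for response differences) and Benjamini-Hochberg adjustment at 0.05 over all genes tested, two-sided; 95% intervals come from the same fits. The procedure was tested on simulated data. No 2 arrays held identical values. Members and lists were chosen with earlier results of these data known. Signals were given per array for members that passed a test, reached 2-fold in WT, Smad2KO or Smad3KO, or were the 2 brightest of their role. Alternatives changed the scaling, floor, filter, probe set choice, arrays, block and variance settings.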

Additional observations from a re-analysis of the deposited data

Results flagged for a closer look

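In the Smad2KO_Smad3het pair, which entered no test, 4 members differed by 2-fold or more between the array with and the array without TGF-b. Mvk, the mevalonate kinase, had a log2 ratio of 2.24, from signals of 54.1 and 256. Abcg1, a sterol efflux pump, had a ratio of -1.2. Fads2, a desaturase, had a ratio of -1.26, and Acsl3, an acyl-CoA synthetase, of -2.03. Each value rests on 2 single arrays and has no replicate check. Other probe sets of these genes on the same arrays went from 135 to 50.3 for Mvk, from 38.7 to 69.6 for Abcg1 and from 34.5 to 113 for Acsl3, opposite to the first. The remaining Acsl3 probe set went from 110.1 to 20.9 and another Fads2 probe set from 146 to 95.2, the same way as the first. On these arrays 12.4% of bright genes were 2-fold higher and 10.9% 2-fold lower. Markers of other cells were brighter there, with 4 of 5 myeloid markers above the limit of 65.0 and sums of 2423 to 2899. The limit was also reached by 2 to 3 of 4 B cell, 2 of 2 NK, 1 to 2 of 2 CD8 and 0 of 2 erythroid markers. Of all probe sets apart from controls, 62.2% and 62.8% reached it on these arrays, against 39.3% to 40.7% on the other 6. The part of the markers in these ratios was not tested.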

How the results depend on the processing

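Of the 5 members called higher and 3 called lower in the mean response, the counts were 0 and 0 with all 8 arrays, 1 and 0 when probe sets were averaged, 2 and 1 with no genotype block, and 2 and 0 with no filter or without limma's trend and robust settings; leaving out 1 genotype pair gave 2 to 6 and 1 to 6. Lower in Smad2KO than in WT were 2, with 0 under each of those 5 settings, 1 under median centring and 0 to 4 with 1 array left out. Lower in Smad3KO than in WT was 1, with 0 under those 5 settings, median centring, a filter on the mean signal and an offset of 16, and 0 to 1 with 1 array left out. Higher in Smad3KO than in WT were 0, with 1 at a floor of the 25th percentile, 2 under median centring and 0 to 1 with 1 array left out. Between the knockouts 2 were higher, with 0 under the same 5 settings, and 0 were lower, with 1 at the 25th percentile floor, 1 under quantile normalization and 0 to 1 with 1 array left out. The sterol median of -0.038 became 0.104 with all 8 arrays and 0.010 when probe sets were averaged. The fatty acid median of -0.12 became -0.034 when probe sets were averaged and ranged from -0.16 to -0.013 with 1 genotype pair left out. The sensing and transport median of 0.034 became -0.0087 with all 8 arrays and 0.124 when probe sets were averaged, and ranged from 0.023 to 0.081 with 1 pair left out. Over all genes, the mean response gave 27 to 947 genes higher and 12 to 922 lower in place of 677 and 537. The cause of these shifts was not tested. Leaving out arrays and dropping the block were not run for the response differences. The response test pairs the 2 arrays of each genotype, and the fit with no genotype block is its unpaired form; the labels give no replicate numbers. Dim signals limit Scd1 and Fads2.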
